A study of Mus musculus with 12 samples.

Results

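Klf1 and 8 other Kruppel-like factor genes were followed in PreMegEs, the bone marrow progenitors that give rise to megakaryocytes and erythroid cells. The 9 genes, Klf1, Klf3, Klf7, Klf9, Klf10, Klf11, Klf12, Klf13 and Klf16, were taken by their symbols from the 41128 genes of the count table. Klf2, Klf4 and Klf6, which belong to the immediate early response, were left out. RNA-Seq libraries of 4 groups, each of 3 libraries, were made from adult bone marrow of C57BL/6 mice aged 12 to 16 weeks, with the marrow of 3 mice in each library. WT PreMegEs came from wild type mice and were not divided further. P2- and P2+ PreMegEs came from mice with a dual reporter on 1 Runx1 allele, in which GFP reports promoter P1 and a truncated human CD4 reports promoter P2. All cells of these 2 groups were P1-GFP positive, and the hCD4 signal separated them. The study refers to Runx1 haploinsufficiency in these reporter mice. Against WT or KO PreMegEs, the sorted subset and the reporter genotype therefore cannot be told apart. KO PreMegEs came from mice that lack RUNX1C, the isoform made from P1. By the study's account their GFP insertion at P1 is on both alleles and P2 is still transcribed.

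Kruppel-like factors are transcription factors with zinc fingers at the C-terminus that bind CACCC boxes and GC-rich DNA. KLF1, or EKLF, is the erythroid activator of the family and drives genes for globins, heme synthesis and the red cell membrane. It also restrains megakaryocyte genes in the bipotent progenitor. KLF3, KLF8 and KLF12 are repressors that recruit CtBP, and Klf3 is itself a known target of KLF1. KLF9, KLF10, KLF11, KLF13 and KLF16 recruit the SIN3A corepressor.

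The promoters of Klf1, Klf3 and Klf9 are shown because these 3 genes were lower in P2+ than in P2- PreMegEs. The sequences are those of RefSeq on GRCm38.p6, read 5′ to 3′ on the strand of the gene, from 250 bases before its start to 50 bases after it. Capitals mark matches on either strand to CACACCC or CACGCCC (the core of the KLF1 site), AGATAA or TGATAA for GATA factors, TGTGGT for RUNX factors, and CCAAT.
Klf1, chr8:84901732-84902031, plus strand: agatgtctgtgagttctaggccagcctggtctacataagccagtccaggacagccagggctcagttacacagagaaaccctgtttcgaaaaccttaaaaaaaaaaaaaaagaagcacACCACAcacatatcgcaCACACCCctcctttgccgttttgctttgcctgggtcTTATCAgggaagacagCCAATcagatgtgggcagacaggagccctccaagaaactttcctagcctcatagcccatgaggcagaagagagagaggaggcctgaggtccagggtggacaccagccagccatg
Klf3, chr5:64803271-64803570, plus strand: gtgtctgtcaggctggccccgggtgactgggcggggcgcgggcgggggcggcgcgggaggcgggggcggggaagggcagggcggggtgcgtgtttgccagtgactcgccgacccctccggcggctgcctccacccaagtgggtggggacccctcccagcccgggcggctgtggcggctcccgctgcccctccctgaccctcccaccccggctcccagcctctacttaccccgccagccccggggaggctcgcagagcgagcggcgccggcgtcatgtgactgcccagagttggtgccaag
Klf9, chr19:23140976-23141275, plus strand: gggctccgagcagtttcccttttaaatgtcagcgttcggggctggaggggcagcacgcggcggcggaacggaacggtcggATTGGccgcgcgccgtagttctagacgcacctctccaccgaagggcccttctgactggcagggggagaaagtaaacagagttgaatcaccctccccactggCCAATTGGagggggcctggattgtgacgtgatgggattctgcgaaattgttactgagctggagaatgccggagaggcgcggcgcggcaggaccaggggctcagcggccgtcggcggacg
The Klf1 window held TGTGGT on the other strand 133 bases before the start, CACACCC 116 bases before it, TGATAA on the other strand 80 bases before it and CCAAT 64 bases before it. The Klf9 window held CCAAT 3 times, of which 2 matches on opposite strands overlap (69 and 66 bases before the start). The Klf3 window held none of these letters. Other forms of the KLF1 site and other starts of the gene were not searched. Of 32851 windows of 300 bases, 7.95% held CACACCC, 8.44% CACGCCC, 11.2% AGATAA, 9.05% TGATAA, 16.8% TGTGGT and 37.4% CCAAT. RefSeq and the GENCODE annotation used below place the starts of Klf1, Klf3, Klf7, Klf11 and Klf12 differently. The Klf12 window (chr14:100149747-100150046) lies within the GENCODE gene, far from its start. A promoter window was at hand for 7 of the 9 members. Among the other 4, CACACCC or CACGCCC occurred in Klf11, Klf12 and Klf13.

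Klf1 (ENSMUSG00000054191, chr8:84901928-84905291 on GRCm38, plus strand) was the member with the widest range of group means in CPM. It was at 437, 354 and 377 CPM (counts relative to library size, TMM-scaled by edgeR) in the 3 P2- libraries and at 58.2, 58.5 and 59.6 CPM in the 3 P2+ libraries. In WT PreMegEs it was at 227, 220.0 and 241 CPM, and in KO PreMegEs at 361, 379 and 375 CPM. Every P2+ library was below every WT library, and every WT library was below every P2- and KO library, while the P2- and KO libraries overlapped. The levels therefore ran, from low to high, P2+, WT, KO and P2-, and the last 2 were not told apart by the test.

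**Figure D1:**
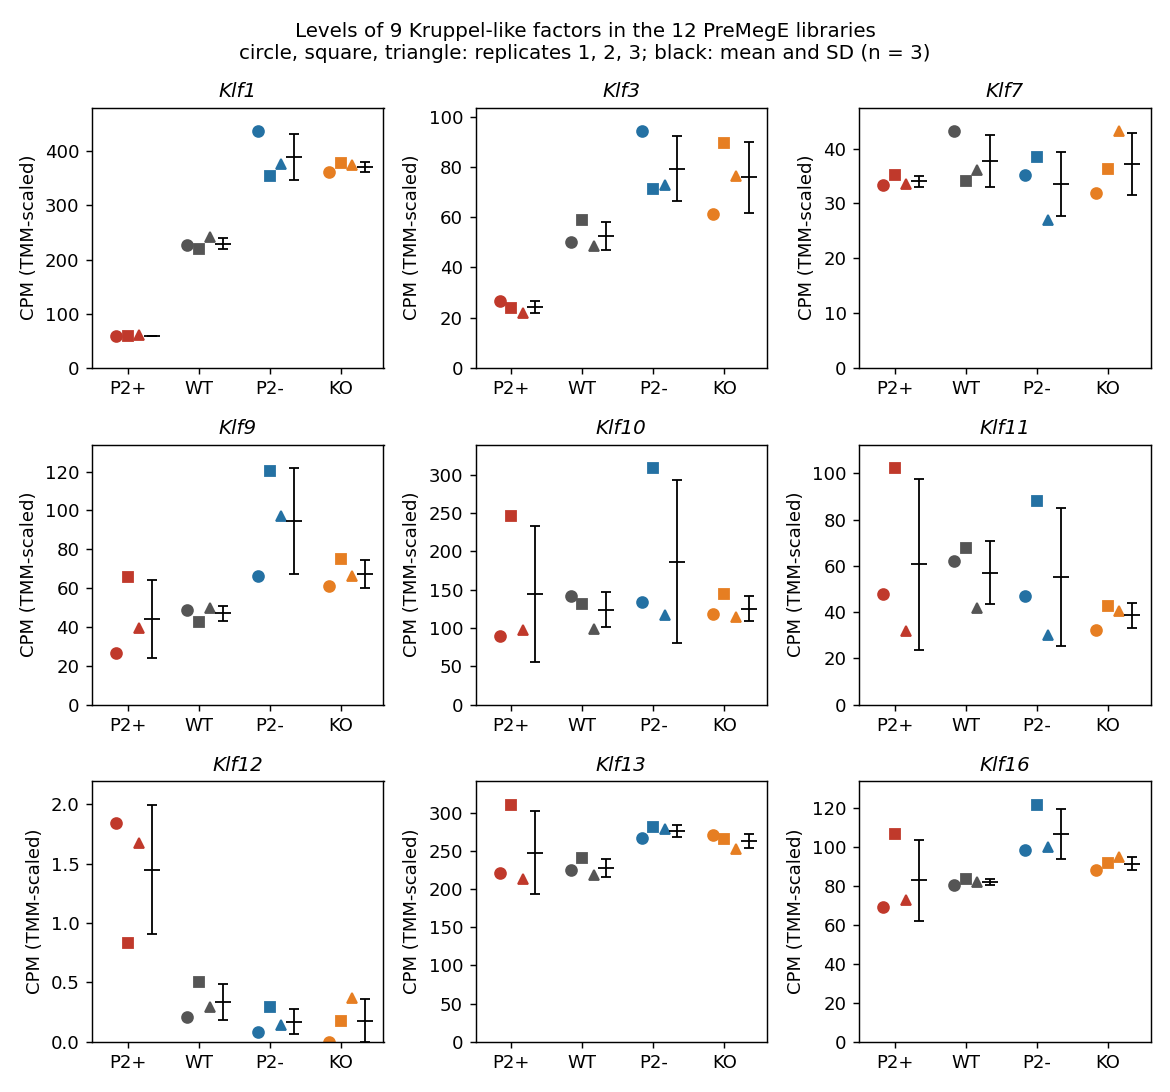
TMM-scaled CPM of each member in the 12 libraries (points, with the replicate number as the shape of the point) and the mean and SD of each group (black, n = 3); each vertical axis starts at 0. Klf1 was between 58.2 and 59.6 CPM in P2+ and between 354 and 437 CPM in P2- PreMegEs, whereas Klf10 and Klf11 stood highest in replicate 2 of both groups.

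On a scale that allows genes to be compared (RPKM, per length of all exons), Klf1 was the highest of the 9 members in every group. Its mean was 255 ± 28.1 RPKM in P2-, 243 ± 6.05 in KO, 150 ± 6.97 in WT and 38.4 ± 0.489 in P2+ PreMegEs (SD, n = 3). In P2+ PreMegEs Klf10 (34.7 ± 21.2 RPKM), Klf13 (32.9 ± 7.16 RPKM) and Klf16 (31.1 ± 7.79 RPKM) lay within 1 SD of their own spread of the Klf1 level. In replicate 2 of P2+ all 3 of them exceeded Klf1. Klf1 made up 60.9% ± 7.82 of the RPKM summed over the members in P2-, 64.6% ± 0.903 in KO, 55.0% ± 3.06 in WT and 24.2% ± 6.07 in P2+ PreMegEs. Klf3 and Klf7 were low per length in all groups (group means of 2.16 to 7.07 RPKM), and Klf12 was at most 0.208 RPKM.

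**Figure D2:**
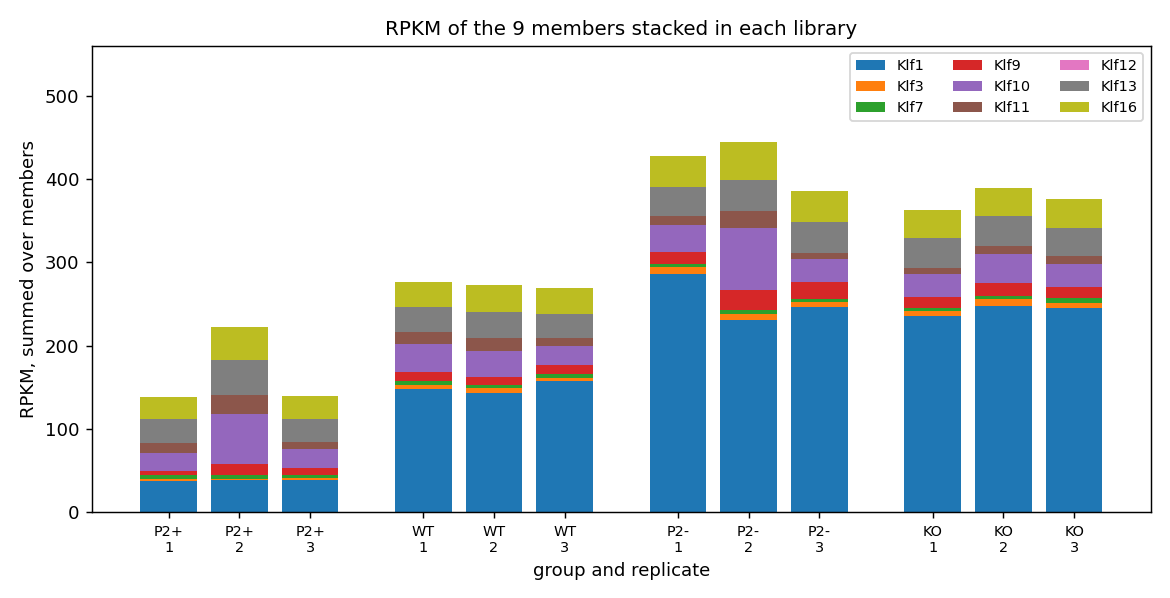
RPKM of the 9 members stacked in each of the 12 libraries, with the groups along the horizontal axis. The summed level was between 138 and 222 RPKM in P2+ libraries and between 386 and 445 RPKM in P2- libraries, and Klf1 (blue) was the largest block outside replicate 2 of P2+.

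Between the subsets of the reporter mice, 3 of the 8 members that could be tested were lower in P2+ than in P2- PreMegEs and 0 were higher. In this comparison 37.1% of all genes tested passed the threshold (17.0% lower in P2+ and 20.1% higher). By edgeR's quasi-likelihood test with Benjamini-Hochberg adjustment, Klf1 differed by a log2 fold change of -2.71 (SE 0.09, adjusted p = 1.31e-06). Klf3 differed by -1.70 (SE 0.14, adjusted p = 3.05e-05) and Klf9 by -1.08 (SE 0.31, adjusted p = 0.0247). All 3 passed 2-fold, as did 12.7% of all genes tested, and in all 3 each P2+ library was below each P2- library. Groups without overlap, in either direction, were found for 49.9% of all genes. Over the 8 members the median log2 fold change was -0.35, against -0.02 over all genes. In these bulk libraries, fewer cells with a transcript and less of it in each cell cannot be told apart.

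Klf3 (ENSMUSG00000029178, chr5:64803388-64832901, plus strand) encodes a repressor that acts on many of the genes KLF1 activates. It was at 94.3, 71.3 and 72.8 CPM in P2- and at 26.8, 24.0 and 22.0 CPM in P2+ libraries. WT libraries were at 50.0, 58.9 and 48.7 CPM and KO libraries at 61.5, 89.7 and 76.4 CPM. P2+ was lowest and WT next without overlap, and P2- and KO libraries overlapped, so the order was that of Klf1. An exon of Gm20033 on the other strand overlaps Klf3, and whether strand was used in counting is not stated, so some counts may belong to that gene.

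WT PreMegEs, which were not divided by the reporter, stood at 48.4% ± 3.22 of the difference in mean CPM that separates P2+ from P2-, counted from P2-, for Klf1 and 48.8% ± 10.0 for Klf3 (SD, n = 3). WT cells carry no reporter allele, so this position is not a share of P2+ cells. KO PreMegEs stood at 5.36% ± 2.80 of that difference for Klf1 and 6.47% ± 25.6 for Klf3. For Klf9 the positions were different, with WT at 94.3% ± 7.90 and KO at 54.0% ± 14.3. These SDs cover the WT or KO libraries and take the P2- and P2+ means as fixed. With 1 library left out, the log2 fold change of Klf1 in KO against P2- ran from -0.13 to 0.02. That of Klf3 ran from -0.21 to 0.07, so on which side of P2- the KO level lay was not settled for either gene. Over the 12 libraries the log2 CPM of Klf3 had a Pearson r of 0.974 and a Spearman rho of 0.930 with that of Klf1. This is a description, since libraries of 1 group share their levels.

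Klf9 (ENSMUSG00000033863, chr19:23141226-23168134, plus strand), a factor known to be induced by thyroid hormone and glucocorticoids, was at 66.1, 120.2 and 97.3 CPM in P2- and at 26.8, 66.0 and 39.7 CPM in P2+ libraries. It was at 48.9, 42.5 and 49.8 CPM in WT and at 60.9, 75.1 and 66.1 CPM in KO libraries. The highest P2+ library (66.0) and the lowest P2- library (66.1) were next to each other, and replicate 2 was the highest in both groups. The call between P2+ and P2- was lost by edgeR's quasi-likelihood test when 1 of 4 libraries was left out (P2+ replicate 1, adjusted p = 0.0677; P2+ replicate 3, 0.0863; P2- replicate 2, 0.0541; P2- replicate 3, 0.0679). Leaving out 1 library moved the log2 fold change between -1.48 and -0.82, so it did not always reach 2-fold. With the replicate number as a block, which pairs these libraries, the log2 fold change was -1.13 (adjusted p = 2.58e-07).

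Klf10 (ENSMUSG00000037465, chr15:38291463-38300706, minus strand) and Klf11 (ENSMUSG00000020653, chr12:24651274-24662789, plus strand) are TGF-beta-inducible early genes. Klf10 was at 135, 309 and 117 CPM in P2-, at 90.2, 247 and 97.3 CPM in P2+, at 142, 132 and 98.3 CPM in WT and at 118, 145 and 114 CPM in KO libraries. Klf11 was at 47.0, 88.1 and 30.1 CPM in P2-, at 48.0, 102 and 31.8 CPM in P2+, at 62.1, 67.6 and 41.7 CPM in WT and at 32.5, 42.8 and 40.7 CPM in KO libraries. For both genes, replicate 2 stood above the other 2 libraries in P2- and in P2+ PreMegEs. Neither passed the test between P2+ and P2- without pairing, with log2 fold changes of -0.35 (SE 0.45, adjusted p = 0.582) for Klf10 and 0.16 (SE 0.46, adjusted p = 0.819) for Klf11 by edgeR. In fits without pairing, both directions changed when a single library was left out, which also breaks a numbered pair. Klf10 ranged from -0.97 without P2+ replicate 2 to 0.22 without P2- replicate 2, and was at -0.10 without P2+ replicate 1, -0.13 without P2+ replicate 3, -0.54 without P2- replicate 1 and -0.61 without P2- replicate 3. Klf11 ranged from -0.44 without P2+ replicate 2 to 0.67 without P2- replicate 2, and was at 0.31 without P2+ replicate 1, 0.47 without P2+ replicate 3, 0.05 without P2- replicate 1 and -0.14 without P2- replicate 3. None of these passed (adjusted p of 0.0762 to 0.903 for Klf10 and of 0.242 to 0.952 for Klf11, edgeR). Klf10 was lower in P2+ than in P2- within each of the 3 numbered pairs and passed in the fit with replicate as a block, given below.

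Replicate 2 of P2- and P2+ also stood apart in the immediate early genes, a list of 16 genes such as Fos, Jun and Egr1. Their summed CPM was 258, 14753 and 302 in P2- replicates 1, 2 and 3, and 349, 10761 and 451 in P2+ replicates 1, 2 and 3. It was 318 to 1502 in WT and 273 to 711 in KO libraries. Klf7, Klf9, Klf10, Klf11, Klf13 and Klf16 were highest in replicate 2 of both groups, whereas Klf1 and Klf3 were not. The part of the immediate early response in these values was not tested.

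**Figure D3:**
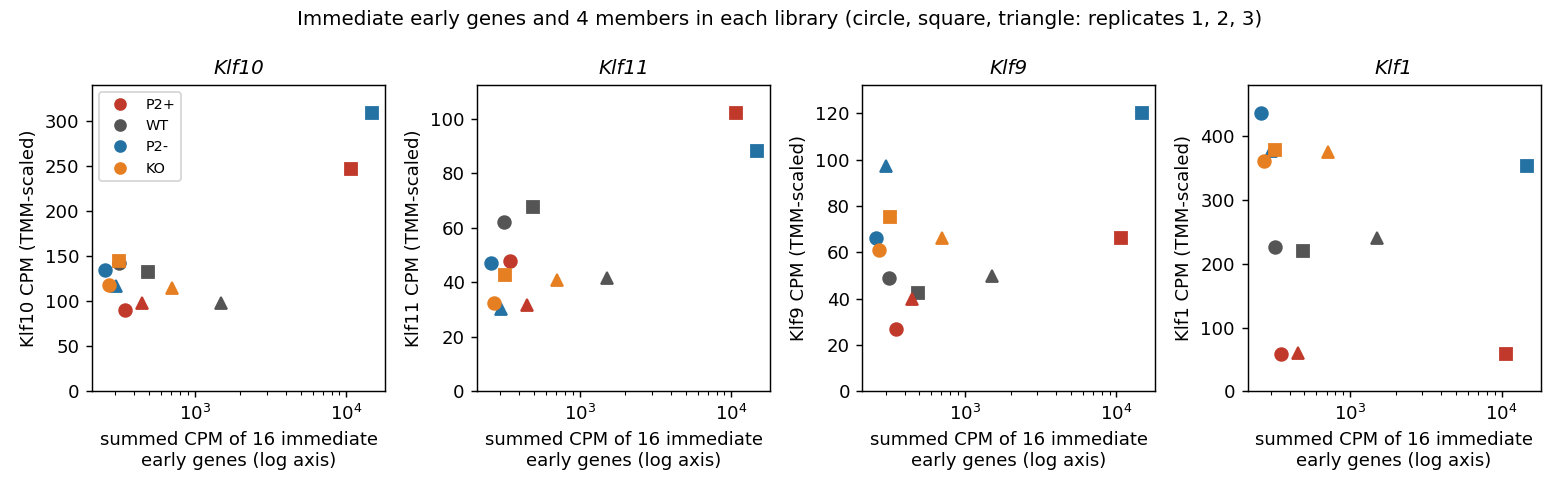
CPM of Klf10, Klf11, Klf9 and Klf1 in each library against the summed CPM of 16 immediate early genes on a log axis, with groups as colours and replicate numbers as shapes. The squares at the right are replicate 2 of P2- (14753) and of P2+ (10761), which carry the highest Klf10 and Klf11 of all libraries, while Klf1 in these libraries lies with the rest of its group.

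When replicate 2 of both groups was left out, 6 members were lower in P2+ than in P2- PreMegEs, where 37.1% of all genes passed (16.8% lower and 20.3% higher). By edgeR's quasi-likelihood test with 2 libraries a group, Klf9 was then at a log2 fold change of -1.27 (adjusted p = 1.94e-04), Klf16 at -0.45 (2.18e-03), Klf10 at -0.39 (7.35e-03) and Klf13 at -0.30 (0.0113), beside Klf1 at -2.76 and Klf3 at -1.75. When the 6 libraries were fitted with replicate as a block, 5 members were lower, where 50.7% of all genes passed (24.8% lower and 25.9% higher). Klf10 then had a log2 fold change of -0.37 (adjusted p = 4.16e-04) and Klf16 one of -0.37 (adjusted p = 9.49e-04) by the same test. Leaving out P2+ replicate 2 alone gave 5 calls (34.6% of all genes, 15.8% lower and 18.7% higher), with Klf16 at -0.56 (adjusted p = 6.32e-03) and Klf13 at -0.32 (0.0155).

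Klf13 (ENSMUSG00000052040, chr7:63886351-63938915, minus strand) was at 267, 282 and 278 CPM in P2-, at 220.5, 310.1 and 213 CPM in P2+, at 225, 241 and 218 CPM in WT and at 271, 266 and 253 CPM in KO libraries. Klf16 (ENSMUSG00000035397, chr10:80567124-80577321, minus strand) was at 98.5, 122 and 100.1 CPM in P2-, at 69.2, 107 and 73.1 CPM in P2+, at 80.4, 83.5 and 82.0 CPM in WT and at 88.1, 92.0 and 94.8 CPM in KO libraries. For each gene P2+ replicate 2 lay above the lowest P2- library and the other 2 P2+ libraries below all P2- libraries. Klf7 (ENSMUSG00000025959, chr1:64029447-64122282, minus strand), a factor known from neurons and blood progenitors, was between 27.0 and 43.2 CPM in all 12 libraries and passed edgeR's test in 0 of the 6 comparisons, before or after adjustment. It passed in 0 of the alternatives run. Genes on the other strand, Gm26649 and Gm13748, overlap exons of Klf7.

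Klf12 (ENSMUSG00000072294, chr14:99870632-100284679, minus strand), a repressor that recruits CtBP, was near the limit of detection and did not pass the filter of 1 CPM in 3 libraries in any comparison. It had 22, 12 and 22 counts in P2+ libraries, 3, 6 and 4 in WT, 1, 3 and 2 in P2- and 0, 2 and 4 in KO libraries. Each P2+ library was above every library of the other groups, in the opposite direction to Klf1. By replicate number it was at 1.84, 0.828 and 1.68 CPM in P2+ and at 0.0796, 0.288 and 0.141 CPM in P2- libraries. Summed over the libraries of a group, 56 counts in P2+ against 6 in P2- gave a ratio of 8.77 relative to library size, with an exact 95% interval from 3.79 to 24.9 that covers counting error only. Without the filter the adjusted p of edgeR's quasi-likelihood test was 9.24e-03 for P2+ against P2-, 9.18e-03 for KO against P2+ and 0.0528 for P2+ against WT. Its log2 fold change for P2+ against P2- was then 3.06 (SE 0.79), with 24.4% of all genes called. Since edgeR's own filter for low counts keeps Klf12 only in comparisons with P2+ and only through its P2+ level, no p-value from that filter is given.

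**Figure D4:**
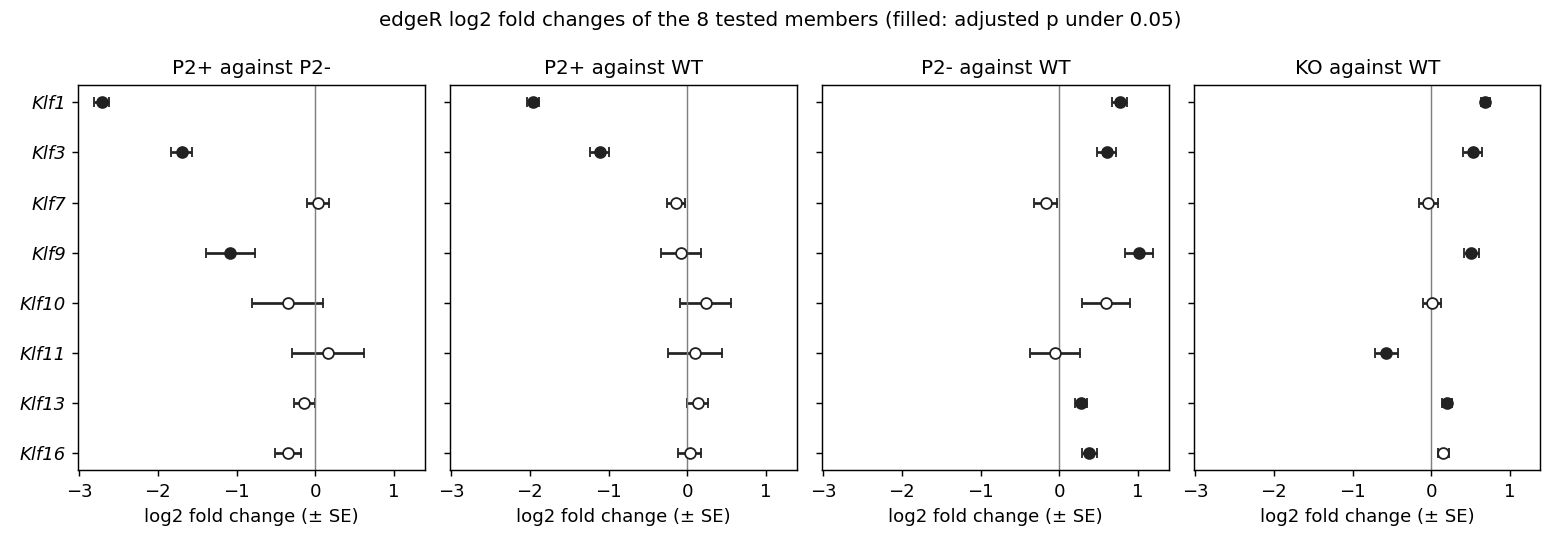
Log2 fold changes of the 8 tested members with their SE in 4 comparisons, with filled points for an adjusted p under 0.05. Klf1 and Klf3 are filled in all 4 panels, at -2.71 and -1.70 for P2+ against P2- and at 0.69 and 0.52 for KO against WT.

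Against undivided WT PreMegEs, 2 members were lower in P2+ (16.5% of all genes tested passed, 7.07% lower and 9.45% higher) and 5 were higher in P2- (16.5% passed, 6.85% higher and 9.60% lower). Both comparisons share the WT libraries. In P2+ these were Klf1, with a log2 fold change of -1.96 (SE 0.08, adjusted p = 2.99e-07), and Klf3, with -1.11 (SE 0.12, adjusted p = 2.12e-04), by edgeR's quasi-likelihood test. In P2- the log2 fold change was 0.77 (SE 0.09, adjusted p = 4.20e-04) for Klf1, 0.60 (SE 0.12, 8.59e-03) for Klf3 and 1.01 (SE 0.18, 4.31e-03) for Klf9 by the same test. Klf16 (0.38, adjusted p = 0.0221) and Klf13 (0.28, adjusted p = 0.0319) also passed in P2-, and Klf9 was the only one of these 5 past 2-fold (4.68% of all genes in P2- against WT). Both members called in P2+ were past 2-fold (3.84% of all genes). The members called in either comparison had groups that did not overlap, as 35.5% of all genes did not in P2+ against WT and 35.1% in P2- against WT. The calls of Klf13 and Klf16 in P2- were lost without any single WT library (adjusted p of 0.0533 to 0.122 and of 0.0644 to 0.0915). They were also lost with all 12 libraries in one fit (0.138 and 0.0775), and Klf13 without P2- replicate 3 (0.0860) or with edgeR's exact test (0.143). Klf16 was lost without replicate 2 of both groups (0.0777). Without P2+ replicate 2, 4 members were lower in P2+ against WT (19.1% of all genes passed, 8.50% lower and 10.6% higher), since Klf9 was then at -0.50 (adjusted p = 0.0400) and Klf10 at -0.40 (0.0463).

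Markers of other cell types moved in these comparisons as well. In P2- against WT PreMegEs 12 of 14 tested megakaryocyte genes were lower and 0 higher, and 8 of 13 erythroid genes were higher and 0 lower. Of the neutrophil and monocyte list 6 of 11 were lower in P2- and 0 higher, among them Mpo (11.3 against 80.7 CPM) and Lyz2 (42.8 against 96.3 CPM), and the list summed to 69.6 to 126 CPM in P2- and to 190 to 345 CPM in WT libraries. Of the lymphoid list 5 of 7 were lower and 0 higher, among them Ighm (10.1 against 25.2 CPM), and it summed to 19.4 to 32.5 CPM in P2- and to 52.9 to 71.7 CPM in WT, with Cd3g and Cd2 at or under 3 counts in every library of both groups. In P2+ against WT 9 of 14 megakaryocyte genes were higher and 1 lower, and 8 of 13 erythroid genes were lower and 0 higher. Of the neutrophil and monocyte list 4 of 10 were higher in P2+ and 0 lower (Csf3r, Itgam, Prtn3 and Lyz2), with a sum of 340 to 500.1 CPM in P2+, and of the lymphoid list 0 of 8 passed. Of the mast cell and basophil list 3 of 5 were higher in P2+ and 1 lower, and 1 of 4 was higher in P2- than in WT. Of the surface protein genes Fcgr2b, Cd34, Itga2b and Ly6a were higher in P2+ than in WT, and Cd34 and Itga2b were lower in P2-. Of 14 tested immediate early genes 1 was higher in P2+ than in WT and 0 passed in P2-. The part of these differences in the values of the members was not tested.

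The total Runx1 count covers transcripts of both promoters and so does not check the loss of RUNX1C. It was at 341, 381 and 358 CPM in KO and at 363, 387 and 357 CPM in WT libraries (log2 fold change -0.05, SE 0.06, adjusted p = 0.702, edgeR's quasi-likelihood test). In P2+ PreMegEs, which were sorted on the activity of a Runx1 promoter, it was at 631 ± 24.2 CPM, against 211 ± 7.41 in P2- (SD, n = 3).

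In KO against WT PreMegEs 4 members were higher and 1 was lower, where 14.9% of all genes tested passed (6.18% higher and 8.76% lower). Klf1 had a log2 fold change of 0.69 (SE 0.06, adjusted p = 3.85e-07), Klf3 of 0.52 (SE 0.12, adjusted p = 4.65e-03), Klf9 of 0.51 (SE 0.10, adjusted p = 1.53e-03) and Klf13 of 0.20 (SE 0.06, adjusted p = 0.0377) by edgeR's quasi-likelihood test. For these 4 genes and for Klf16 (0.15, adjusted p = 0.170) all KO libraries were above all WT libraries, as one group was above the other for 31.8% of all genes. Klf11 was lower by -0.57 (SE 0.15, adjusted p = 0.0129), with libraries that overlapped, and 0 members reached 2-fold (3.41% of all genes did). Klf11 lost its call without KO replicate 1 (adjusted p = 0.0825) or WT replicate 2 (0.0839), and Klf13 lost it without any one of the KO libraries or WT replicates 1 or 3 (0.0628 to 0.123). With all 12 libraries in one fit Klf9 (0.269), Klf11 (0.434) and Klf13 (0.351) lost their calls, as they did without replicate 2 of both groups (0.0682 to 0.0787). Klf1 and Klf3 kept theirs in every alternative fit. Whether KO libraries were made and sequenced together with the others is not stated, so a batch and the genotype cannot be told apart.

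Markers of other cell types also moved between KO and WT PreMegEs. Of the erythroid list 8 of 13 tested genes were higher in KO and 0 were lower, and of the megakaryocyte list 9 of 14 were lower and 2 higher. Of the neutrophil and monocyte list 6 of 10 tested genes were lower in KO and 0 were higher, among them Mpo (27.1 against 80.7 CPM) and Lyz2 (55.3 against 96.3 CPM), and the 12 genes summed to 100.5 to 155 CPM in KO and to 190 to 345 CPM in WT libraries. Lymphoid markers summed to 45.7 to 56.1 CPM in KO and to 52.9 to 71.7 CPM in WT, with 2 of 8 tested genes lower and with Cd3g and Cd2 at or under 3 counts in every library of both groups. Of the mast cell and basophil list 3 of 4 tested genes were higher in KO (Il1rl1, Cpa3 and Ms4a2), its sum was 420 to 508 CPM in KO and 225 to 256 CPM in WT, and Mcpt8, Fcer1a, Prss34 and Gzmb were at or under 3 counts in every KO library. Of 8 genes for surface proteins used in or near the sort, Slamf1 and Kit were higher in KO, and Cd34, Itga2b and Eng were lower. Of 14 tested immediate early genes, 3 were lower in KO. The part of these differences in the values of Klf1, Klf3 and Klf9 was not tested.

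In KO against P2- PreMegEs 0 of the 8 members passed edgeR's quasi-likelihood test, where 1.61% of all genes did (1.33% higher and 0.278% lower in KO), and 0 passed with edgeR's exact test or with DESeq2. Klf1 differed by a log2 fold change of -0.07, with a 95% interval from -0.25 to 0.11, and Klf3 by -0.07, with an interval from -0.39 to 0.25. Before adjustment 2 members were under 0.05, Klf9 (log2 fold change -0.49, adjusted p = 0.223) and Klf16 (-0.22, adjusted p = 0.279) by edgeR. For Klf16 alone every KO library was below every P2- library, and 21.5% of all genes had groups apart in either direction. Without P2- replicate 1, Klf9 passed at -0.69 (adjusted p = 0.0307). In KO against P2+ PreMegEs 2 members were higher, Klf1 at 2.65 (SE 0.07, adjusted p = 4.36e-09) and Klf3 at 1.63 (SE 0.14, adjusted p = 9.25e-06), where 37.1% of all genes passed (16.7% higher and 20.3% lower). Both were past 2-fold (11.4% of all genes) and without overlap (50.5% of all genes). Without P2+ replicate 2, 6 members were higher (40.3% of all genes passed, 19.0% higher and 21.3% lower), with Klf9 at 0.998 (adjusted p = 5.74e-05) and Klf10, Klf13 and Klf16 at 0.40, 0.26 and 0.35. Without P2+ replicate 3, 3 members were called (32.4% of all genes). Klf11 passed as lower in KO in 1 of the fits that left out 1 library (adjusted p = 0.0149, edgeR's quasi-likelihood test). Markers moved here too. In KO against P2+ 12 of 14 megakaryocyte genes, 5 of 10 neutrophil and monocyte genes, 2 of 7 lymphoid genes and 7 of 13 immediate early genes were lower in KO, while 9 of 13 erythroid and 2 of the megakaryocyte genes were higher. Of 5 mast cell and basophil genes 4 were lower and 1 higher. In KO against P2-, beside the megakaryocyte genes given below, 1 of 11 neutrophil and monocyte genes (Csf3r), 1 of 3 lymphoid genes (Ighm) and 2 of 4 mast cell and basophil genes (Cpa3 and Ms4a2) were higher in KO, and 0 of 13 erythroid genes passed. Their part in the values of the members was not tested.

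Of the 26 genes of a list of KLF1 targets, 22 were tested between P2+ and P2- PreMegEs, and 13 were lower and 3 higher in P2+. Their median log2 fold change was -0.60, against -0.02 over all genes, of which 17.0% were lower and 20.1% higher. Hba-a1, Hba-a2, Alas2 and Bcam were too low to be tested. The globin genes Hbb-bs (0.08) and Hbb-bt (0.94) were tested and did not pass. Neither did Slc4a1 (0.51), Epb4.2 (-0.24), Dmtn (-0.52) or Slc25a37 (-0.17). The largest falls were those of blood group and membrane genes, with Ermap, the Scianna antigen, at -5.31 (SE 0.40, adjusted p = 2.05e-05), Rhd at -4.61 (SE 0.38, 3.54e-05), Ank1, the ankyrin of the red cell skeleton, at -3.58 (SE 0.35, 8.55e-05) and Kel at -3.58 (SE 0.42, 2.47e-04) by edgeR's quasi-likelihood test. Ermap was at 22.6 CPM in P2+ and at 904 CPM in P2- on average, and Rhd at 0.324 and 8.28 CPM. The 3 that rose were Xpo7, a nuclear export receptor, at 0.98 (SE 0.08), Sptb, beta spectrin, at 0.87 (SE 0.22), and E2f2, a cell cycle factor, at 0.57 (SE 0.13).

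In KO against WT PreMegEs 11 of 23 tested KLF1 targets were higher and 1 was lower, with a median of 0.31 against -0.00 over all genes. Of all genes 6.18% were higher and 8.76% lower. Hbb-bs (-0.39), Hbb-bt (0.44) and Slc4a1 (-0.26) were among the targets that did not pass. Of the 22 genes tested in both comparisons, which share no library, 9 were lower in P2+ than in P2- and higher in KO than in WT (of 13 and of 11 called), or 40.9%. Over all 12591 genes tested in both comparisons the share was 4.11%. A joint share also follows from how many genes each comparison calls. Both called a larger part of the list than of all genes, so these shares do not measure agreement between the comparisons. Ank1 was at 1.27 (SE 0.10), Rhd at 1.49 (SE 0.27) and Ermap at 0.99 (SE 0.09) in KO against WT. Xpo7 went the other way in each, at -0.31 (SE 0.08, adjusted p = 0.0132, edgeR's quasi-likelihood test) in KO against WT. In P2- against WT 10 targets were higher and 1 was lower, in P2+ against WT 3 were higher and 9 lower, in KO against P2+ 12 were higher and 2 lower, and in KO against P2- 0 of 23 passed.

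**Figure D5:**
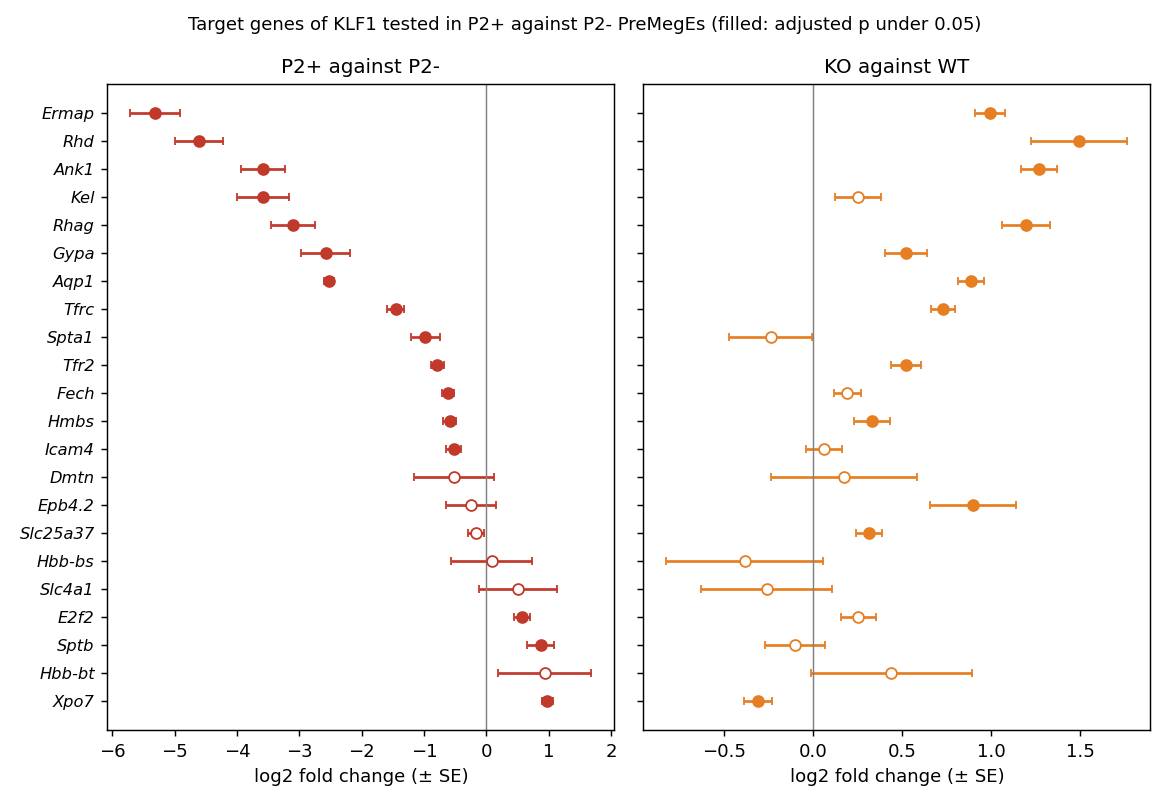
Log2 fold changes with their SE of the 22 KLF1 target genes tested in P2+ against P2- (left, red) and of the same genes in KO against WT (right, orange, with a narrower axis), with filled points for an adjusted p under 0.05. Ermap, Rhd and Ank1 lie lowest on the left (-5.31 to -3.58) and between 0.99 and 1.49 on the right.

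Markers of both lineages moved with Klf1. Of the erythroid list, which holds 11 of the 26 KLF1 targets, 9 of 12 tested genes were lower in P2+ than in P2-, and its 15 genes summed to 5786 to 6496 CPM in P2-, 5523 to 6206 in KO, 3327 to 3836 in WT and 1445 to 1662 in P2+ libraries. Of the megakaryocyte list 12 of 14 tested genes were higher in P2+, and its 15 genes summed to 272 to 375 CPM in P2-, 619 to 690 in KO, 939 to 1086 in WT and 1462 to 2086 in P2+ libraries. The summed order of the erythroid list was that of Klf1, and KO libraries lay apart from P2- in the megakaryocyte list, where 11 of 14 tested genes were higher in KO. Neutrophil and monocyte markers were at 340 to 500.1 CPM in P2+ and at 69.6 to 126 CPM in P2-, and 8 of 12 were higher in P2+. Lymphoid markers were at 48.2 to 145 CPM in P2+ and at 19.4 to 32.5 CPM in P2-, with Cd3e and Cd3g at or under 3 counts in every library of both groups. Of the mast cell and basophil list, 4 of 5 tested genes were higher in P2+ (Ms4a2 at 70.6 against 9.20 CPM, Cpa3 at 39.1 against 16.7 CPM, Hdc and Fcer1a) and Il1rl1 was lower (119.6 against 371 CPM). Its 8 genes summed to 183 to 310 CPM in P2+ and to 375 to 425 CPM in P2-, and Mcpt8 and Prss34 were at or under 3 counts in every library of both groups. The part of these cell types in the Klf1 values was not tested. Of the 8 surface protein genes, 3 were higher in P2+ than in P2- and 1 was lower. Kit, which was selected for, was at 732 to 1156 CPM in all libraries and was lower in P2+ (-0.37, adjusted p = 0.0224, edgeR), and Slamf1, which encodes CD150, was at 34.1 to 65.5 CPM. Of the proteins selected against, Itga2b, which encodes CD41, was at 253 to 320.4 CPM in P2+ and at 38.7 to 61.5 CPM in P2- (2.48, adjusted p = 1.21e-05, edgeR). Fcgr2b, which encodes CD32, was at 16.6 ± 0.508 CPM in P2+ and at 7.57 ± 0.579 CPM in P2- (1.15, adjusted p = 5.11e-04, edgeR), and Eng was at 93.9 to 153 CPM in all libraries. Cd34 was the third that was higher in P2+, at 253 to 386 CPM against 37.5 to 52.5 CPM in P2- (2.73, adjusted p = 1.11e-05, edgeR). Ly6a, which encodes Sca1, was at no more than 3.97 CPM, and was higher in P2+ than in WT (1.53, adjusted p = 0.0158, edgeR).

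Of 14 other genes of the KLF and SP family, 6 were tested between P2+ and P2-. In P2+, 2 were higher and 1 was lower, where 37.1% of all genes passed (20.1% higher and 17.0% lower). Klf8, a repressor gene known to be silenced by KLF3, was higher in P2+ (29.8 ± 2.2 against 20.7 ± 0.985 CPM, log2 fold change 0.54, SE 0.11, adjusted p = 5.96e-03, edgeR's quasi-likelihood test), as was Sp2 (0.29, adjusted p = 0.0327). Sp4 was lower (-0.46, SE 0.07, adjusted p = 1.29e-03). In KO against WT, where 14.9% of all genes passed, Klf8 was lower (-0.41, SE 0.13, adjusted p = 0.0346) and Sp4 higher (0.36, SE 0.07, adjusted p = 1.72e-03) by the same test. Klf14, Klf17, Sp5, Sp7, Sp8 and Sp9 were at or under 3 counts in every library.

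All 15 genes of a list of KLF cofactors were tested between P2+ and P2- PreMegEs, where 2 were higher in P2+ and 1 was lower, with a median log2 fold change of 0.05. Of all genes tested, 37.1% passed (20.1% higher and 17.0% lower), a larger share than in this list. Fhl3, a LIM protein that binds KLF3, was at 1.19 (SE 0.17, adjusted p = 8.32e-04), Ctbp2, the corepressor that binds KLF3, KLF8 and KLF12, at 0.72 (SE 0.13, adjusted p = 2.58e-03) and Rcor1, the CoREST scaffold, at -0.50 (SE 0.07, adjusted p = 9.40e-04) by edgeR's quasi-likelihood test. In KO against WT PreMegEs, where 14.9% of all genes passed, only Fhl3 of the list passed, and it was lower (-0.64, SE 0.19, adjusted p = 0.0306).

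The 5 genes most like Klf1 over the 12 libraries, among 9528 genes with a mean of at least 10 CPM, were Tnfaip2, Necap2, Slc40a1, Aqp9 and Sppl2b (Pearson r of 0.998 to 0.994 on log2 CPM). The points are 4 groups of 3 libraries, so the coefficients mostly repeat the order of the groups. Slc40a1, the iron exporter ferroportin, was at 123 ± 25.1 CPM in P2-, 130 ± 13.5 in KO, 54.0 ± 6.66 in WT and 6.53 ± 0.767 in P2+ PreMegEs (SD, n = 3). Aqp9, a channel for water and glycerol, was at 370 ± 18.8 CPM in P2-, 342 ± 30.0 in KO, 235 ± 15.8 in WT and 64.0 ± 5.95 in P2+ PreMegEs. Both had the lowest level in P2+ and an intermediate one in WT, as Klf1 did.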

How the data were processed

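RNA was extracted from PreMegEs sorted by flow cytometry, and strand-specific poly(A) libraries were sequenced as paired reads. The authors aligned the reads to GRCm38 (Bowtie2) and assigned them to the genes of Ensembl 76 (featureCounts). The deposited table holds the raw counts, 1 column per library, not normalized (the submitters' processing notes also name SAMtools 0.1.19, R 3.1.0 and edgeR 3.8.5). Whether strand was used and how multiply aligned reads were counted is not stated. No reads were aligned again here.

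Totals were 10726098 to 14445026 counts per library. A count of 0 allows up to 3 counts, and this floor covers counting error only. Libraries of 1 group varied more than counting error (chi-square divided by degrees of freedom, 4.49 to 32.8), so none was treated as a repeat of another. Labels give the groups, and each library holds 3 mice, so p-values rest on 3 such pools a group.

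Each pair of groups was fitted with edgeR 4.0.16 in R 4.3.3, with TMM scaling, genes at 1 CPM or more in at least 3 of the 6 libraries, group as the only term, the quasi-likelihood F test and Benjamini-Hochberg adjustment over all genes tested. A gene was called at an adjusted p under 0.05. The scripts were tested on simulated data. CPM and RPKM use TMM over the 12 libraries and exonic lengths from GENCODE vM21. Each of the 6 comparisons shares a group with some of the others, so they are not independent. P2+ and P2- libraries of the same number deviated together from their group means (correlations across genes of 0.386, 0.572 and 0.405), so the numbers pair them. A blocked fit is given for members where it changed a call. Genes of the other lists were counted from the fit without a block only. Alternatives were DESeq2 1.42.0, edgeR's exact test (the study's test), DESeq2 size factors, other filters, all 12 libraries in 1 fit, a replicate block, a minimum of 2-fold and leaving libraries out.

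The members, the lists and the tests were chosen with earlier results of these data known, and the lists were written from general knowledge. All members are named, with up to 4 called genes per direction of the family, target and cofactor lists, the 5 genes most like Klf1 and Runx1. Of the 27 KLF1 targets listed, 26 were matched in the table. Lists are described by counts and medians without a test of the list.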

Additional observations from a re-analysis of the deposited data

How the results depend on the processing

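Of 680 values of members recomputed under the alternatives, 24 gained a call, 29 lost one and 3 turned direction with a call, while the call of the other 624 did not change. In all, 34 values changed sign. Klf1 kept its call under every alternative fit in the 5 comparisons that had one. The 3 that turned were Klf10 in P2+ against WT without P2+ replicate 2 (-0.40, against a highest value of 0.48 when another library was left out), and Klf10 in KO against P2+ without P2+ replicate 2 (0.40, against a lowest value of -0.47) and without replicate 2 of both groups (0.29). The number of members called is given here with the share of all genes called by the same rule. In P2+ against P2- it was 3 (37.1%), 5 with the replicate block (50.7%), 6 without replicate 2 of both groups (37.1%) and 6 with both changes (44.4%, added after the data were seen), and 2 to 5 when 1 library was left out (28.5% to 34.6%). In P2+ against WT it was 2 (16.5%), and 2 to 4 when 1 library was left out (9.49% to 19.1%). In P2- against WT it was 5 (16.5%), 1 with a minimum of 2-fold (4.68%), 3 with all 12 libraries in one fit (19.6%), and 3 to 5 when 1 library was left out (8.50% to 17.3%). In KO against WT it was 5 (14.9%), 0 with a minimum of 2-fold (3.41%), 2 with all 12 libraries in one fit (9.94%), 2 without replicate 2 of both groups (8.88%), and 3 to 4 when 1 library was left out (9.41% to 13.1%). In KO against P2- it was 0 (1.61%), 1 with no filter on low counts (2.45%), and 0 to 1 when 1 library was left out (0.337% to 3.28%). In KO against P2+ it was 2 (37.1%), 5 with no filter on low counts (25.9%), 6 without replicate 2 of both groups (36.0%), and 2 to 6 when 1 library was left out (27.0% to 40.3%). The cause of these changes was not tested. Other pairs of groups share only their replicate numbers: no other pair of groups had all 3 correlations above 0.1, and with the replicate block Klf13 lost its call in P2- against WT (adjusted p = 0.0695, edgeR) and Klf9 gained one in KO against P2+ (adjusted p = 0.0124, edgeR). Depth limits Klf12, whose counts were at most 22 a library.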
